A study of Homo sapiens with 48 samples.

Results

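TXNRD1 and FTH1 are 2 of the 452 genes on a targeted RNA panel, and their 6 probes are 3 for each gene among 1113 probes in all. The members are every probe in the count tables that carries either gene symbol, whatever its level. The 2 genes themselves were chosen with earlier results of these data known. TXNRD1 encodes cytosolic thioredoxin reductase, a selenoprotein that uses NADPH to keep thioredoxin reduced, so that thioredoxin can in turn reduce peroxiredoxins and oxidised protein cysteines. FTH1 encodes the heavy chain of ferritin, the subunit with ferroxidase activity, which oxidises ferrous iron as it is stored in the ferritin shell. Transcription of both genes can be raised by NRF2, a regulator of the oxidative stress response, and translation of FTH1 is set by cellular iron through an iron-responsive element in its 5′ UTR, a step that RNA levels do not show.

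The 48 libraries were made by RASL-Seq, in which neighbouring DNA probes that anneal to an RNA are joined by a ligase and the joined products are sequenced and counted. All came from WA09 (H9), 1 established human embryonic stem cell line, with the genotype given as normal. Embryoid bodies (EBs), in which stem cells differentiate as floating clusters, were started from 20000 cells in each well and kept in Essential 6 (E6) medium for 7 days. Over the first 24 hours the cells of 16 EB libraries received CEPT (CEPT EB), a cocktail of polyamines with the small molecules chroman 1, emricasan and trans-ISRIB, and those of the other 16 received the ROCK inhibitor Y-27632 (Y27 EB). Control cultures had 4 libraries each: untreated stem cells (hESC), ectoderm made in E6 medium with 100 nM LDN-193189 plus 2 µM A83-01 over 6 days, and mesoderm and endoderm, each made with a STEMdiff kit (Mesoderm Induction Medium or Definitive Endoderm Kit) over 5 days. The labels do not say that libraries of a group came from separate cultures, so p-values measure the spread between these libraries, which may be technical. In these bulk lysates, fewer cells of a type and less RNA per cell cannot be told apart.

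Library totals ran from 379810 to 5577868 reads with a median of 3583316, and 1 library, Y27 EB replicate 15, lay under 0.25 of that median. The labels of the control cultures were checked against lineage markers, as mean CPM (reads of a probe scaled to a common library size). NANOG stood at 1982 CPM in hESC, PAX6 at 915 in ectoderm, T at 1158 in mesoderm and SOX17 at 2127 in endoderm, each the highest of the 4 control groups. Not every listed marker was highest in its own culture: 5 of 7 pluripotency, 4 of 6 ectoderm, 3 of 4 mesoderm and 4 of 4 endoderm genes were. SOX2 was higher in ectoderm (4232 CPM) than in hESC (726), OTX2 was higher in endoderm (986) than in ectoderm (173), as was LMX1A (310 against 128), LIN28A was highest in endoderm and KDR in hESC. In the EBs the summed endoderm list (4 of 7 listed genes on the panel) ran from 0 to 59.1 CPM after CEPT and from 2.34 to 157 after Y-27632, and the summed mesoderm list (4 of 8) from 12.2 to 439 and from 1.64 to 3965. The part of these other cell types in the differences between the EB arms below was not tested.

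The probes' names carry a transcript and a number that was read here as a position counted from the transcript's first base; the labels do not define it, so the placements below rest on that reading. FTH1 is a gene of 3350 bases on the minus strand of chromosome 11 (GRCh38.p14, chr11:61964285-61967634). Read so, probe 274 lies at position 400 of its transcript NM_002032, in coding sequence of exon 2 of 4, and probes 276 and 275 at positions 889 and 1072, both in the 3′ UTR in exon 4. TXNRD1 spans 134529 bases of the plus strand of chromosome 12 (chr12:104215779-104350307) and has 7 RefSeq transcripts. Probes 1024 and 1025 lie at positions 2003 and 3585 of NM_001093771, both in the 3′ UTR in exon 17 of 17, 32 and 1614 bases after the last coding base. Probe 777 is named for position 4041 of another transcript, NM_182742, and was not placed in an exon. GENCODE 29 lists 25 FTH1 pseudogenes, and whether their reads reach the FTH1 probes is not known.

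The coding end of TXNRD1 that precedes the 3′ UTR of probes 1024 and 1025 is shown to place these readouts. It was read from the GENCODE 29 transcripts on GRCh38 (chr12:104348353-104348418, plus strand). The capitals mark the TGA codon that is read as selenocysteine in the active site of thioredoxin reductase. The probes' own sequences were not used here.
TXNRD1 last coding stretch: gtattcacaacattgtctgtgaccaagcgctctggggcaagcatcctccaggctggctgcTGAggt

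Levels below are CPM scaled by TMM (trimmed mean of M values) over all 48 libraries. Each probe pair ligates with its own efficiency, so levels of different probes do not give the ratio of the transcripts. FTH1 probe 274 was the strongest of the 6, ranked 26 of 1113 probes by its mean over all libraries. Probe 276 ranked 81, TXNRD1 probe 1025 ranked 131, and the weak probes 1024, 275 and 777 ranked 699, 810 and 972. FTH1 took 1.08% ± 0.044 (SD, n = 4) of all reads in hESC and 2.66% ± 0.239 (SD, n = 4) in endoderm. In the EBs its share was 0.605% ± 0.127 (SD, n = 16) after CEPT and 0.865% ± 0.159 (SD, n = 16) after Y-27632. TXNRD1 took between 0.0621% (CEPT EB) and 0.168% (mesoderm) of all reads as a group mean.

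**Figure D1:**
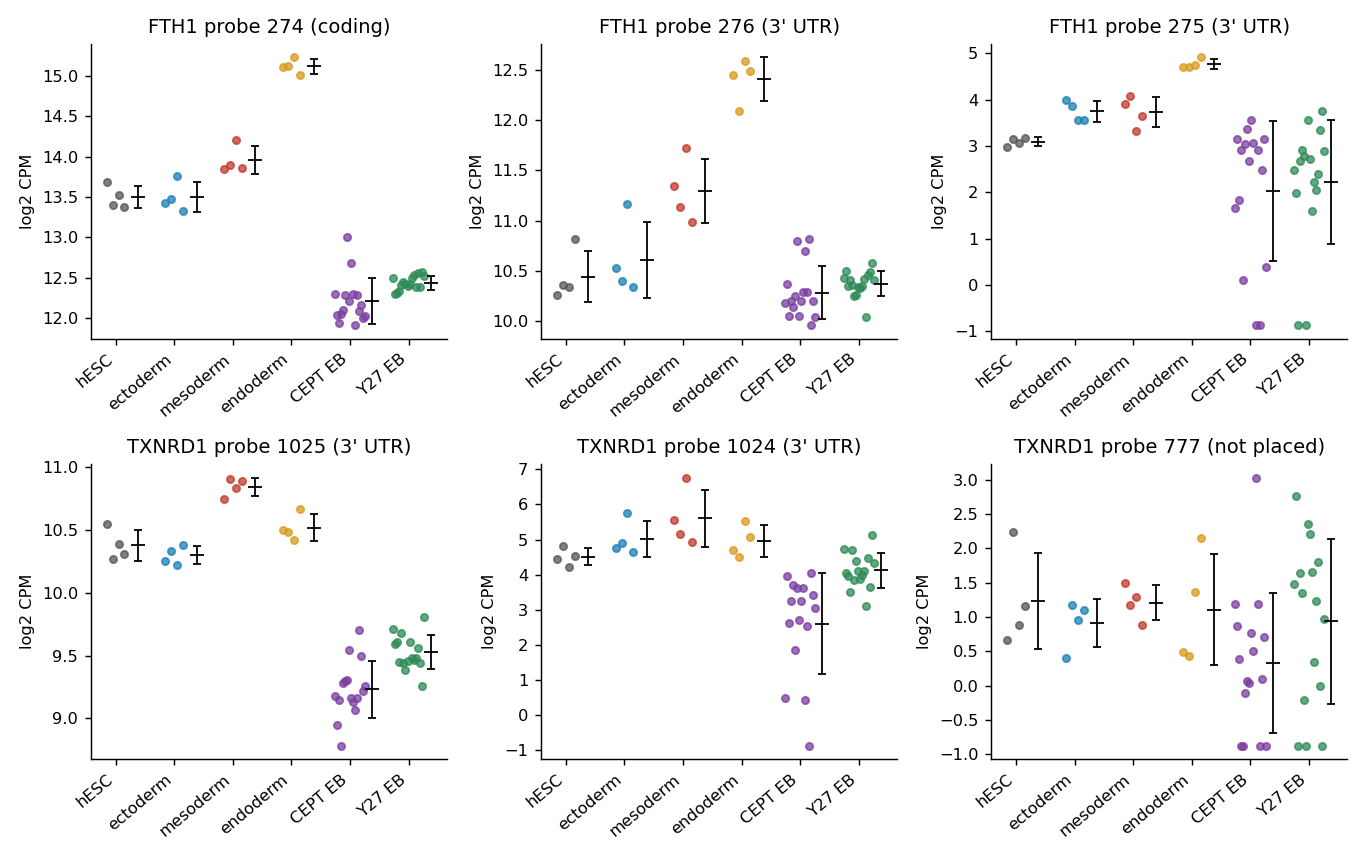
Each panel plots log2 CPM (prior count 2) of 1 probe, with a point per library, and a bar and whiskers for the mean and SD of each of the 6 groups. FTH1 probes 274 and 276 are highest in the 4 endoderm libraries, TXNRD1 probe 1025 is highest in the 4 mesoderm libraries, and both EB arms sit at the bottom for probes 274 and 1025.

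FTH1 was higher in endoderm than in hESC with each of its 3 probes, by about the same factor. Probe 274 read 13124, 10846, 11765 and 10644 CPM in the hESC libraries and 35393, 35556, 38442 and 33029 CPM in the endoderm libraries. Probe 276, in the 3′ UTR, read 1219, 1310, 1295 and 1797 CPM in hESC and 5626, 4377, 6182 and 5784 CPM in endoderm. Every endoderm library was above every hESC library with both probes. Here and below, the share of all probes whose groups did not overlap was not computed, so such separation may be common on this panel. The fitted log2 fold changes were 1.56 (SE 0.11, adjusted p = 9.55e-11) for probe 274, a 2.95-fold difference, 1.89 (SE 0.21, adjusted p = 3.24e-07) for probe 276 and 1.67 (SE 0.21, adjusted p = 5.33e-07) for the weak probe 275, which had 12 to 20 reads in hESC libraries and 52 to 76 in endoderm libraries. So 3 of 3 FTH1 probes passed, where 78.2% of the 903 probes tested in this comparison were called in either direction, 38.4% higher and 39.8% lower. Both stronger probes kept the increase under every scaling, filter and tool tried and with each library left out, at 1.21 to 2.35 for probe 274 and 1.55 to 2.70 for probe 276 over the alternatives. Probe 275 missed the threshold in a single fit of all 48 libraries (log2 fold change 1.74, adjusted p = 0.0889).

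TXNRD1 gave no call in endoderm with the scaling used here, a result that depended on the processing. Probe 1025 read 1499, 1232, 1342 and 1266 CPM in hESC and 1451, 1436, 1368 and 1628 CPM in endoderm, and the groups overlapped. Its change on the log2 scale was 0.08 (SE 0.066, adjusted p = 0.303), with a 95% interval from -0.054 to 0.21. That sign depended on the scaling: the value was -0.28 (adjusted p = 0.00228) with upper-quartile factors and -0.22 (adjusted p = 0.0072) with library totals alone, and 0.87 (adjusted p = 9.56e-06) when scaled to the reference genes. It was also called higher, at 0.17 to 0.31, with DESeq2 size factors, DESeq2's own test, no filter, a filter of 10 reads in every library and probes summed per gene, so 3 of 11 alternatives gave the same direction and no call. Probe 1024, at 55 to 90 reads in endoderm, did not pass either (0.40, SE 0.40, adjusted p = 0.372). Scaled to the reference genes, probe 1024 was called higher (1.20, adjusted p = 0.00102). A ratio inside a library needs no scaling: per 100 reads of TXNRD1 probe 1025 there were 868 ± 18.5 reads of FTH1 probe 274 in hESC and 2438 ± 319 in endoderm (SD, n = 4 each). All 4 endoderm libraries were above all 4 hESC libraries, with a log2 difference of 1.48. The exact two-sided permutation p was 0.0286, the smallest that 4 against 4 can give, and 0.114 after adjustment over the 20 ratio tests.

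Mesoderm was where TXNRD1 was highest. Probe 1025 read 1722, 1921, 1826 and 1902 CPM in mesoderm, all above the highest hESC library (1499 CPM). The fitted log2 fold change was 0.23 (SE 0.066, adjusted p = 0.00425) in the fit of the 16 control libraries and 0.47 in a single fit of all 48 libraries, whose scaling the CPM share. It stayed called at 0.23 to 0.99 under the 11 alternatives and without each library in turn. Probe 1024 read 21.3, 27.6, 18.2 and 22.5 CPM in hESC and 46.4, 35.4, 108 and 29.7 CPM in mesoderm. The groups did not overlap, and mesoderm replicate 3 stood far above the others. Replicate 3 was also the highest ectoderm and endoderm library with this probe (53.9 and 45.7 CPM), and the highest of all 3 lineage cultures with FTH1 probes 274 and 276. Over all probes, the deviations of the replicate 3 libraries from their group means correlated between these cultures (r = 0.45 to 0.58). What replicate numbers stand for is not given, and the part of a shared preparation in these values was not tested. It was 1.00 higher on the log2 scale (SE 0.38, adjusted p = 0.0262), and 0.65 without mesoderm replicate 3, where the call was lost, as it was without hESC replicate 1 (0.95) or 3 (0.91) and in the single fit of 48 libraries (1.29, adjusted p = 0.0657). Both tested TXNRD1 probes were thus called higher, where 77.5% of 903 probes were called in either direction, 34% higher and 43.5% lower.

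FTH1 was called higher in mesoderm with 1 of its 3 probes. Probe 276 read 2601, 2255, 3385 and 2029 CPM in mesoderm, above all 4 hESC libraries (log2 fold change 0.62, SE 0.20, adjusted p = 0.01), and this call held under the 10 alternatives and without each library. Probe 274 read 14697, 15271, 18963 and 14851 CPM, also above every hESC library, but its fitted change of 0.22 (SE 0.10, adjusted p = 0.0629) missed the threshold. That miss depended on the processing. The change of probe 274 passed at 0.31 (adjusted p = 0.0192) with DESeq2 size factors, at 0.56 (adjusted p = 6.52e-05) with library totals alone and at 0.46 (adjusted p = 0.0082) in the single fit of 48 libraries, as it did without hESC replicate 1 (0.26) or mesoderm replicate 2 (0.41), 3 (0.31) or 4 (0.41). Probe 275 missed it too (0.48, SE 0.22, adjusted p = 0.0524), and was called higher in 8 of 10 alternatives, among them DESeq2 size factors (0.56, adjusted p = 0.022) and library totals alone (0.81, adjusted p = 0.00214), and without mesoderm replicate 2 (0.52), 3 (0.77) or 4 (0.68).

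In ectoderm neither strong probe was called against hESC with the scaling and filter used here. Probe 274 read 10985, 11368, 13930 and 10269 CPM, and the groups overlapped. On the log2 scale it changed by 0.094 (SE 0.10, adjusted p = 0.422), with a 95% interval from -0.11 to 0.30. TXNRD1 probe 1025 read 1221, 1289, 1196 and 1333 CPM, with a log2 difference of 0.00020 (SE 0.066, adjusted p = 1) with an interval from -0.13 to 0.13. Only the weak FTH1 probe 275 was called (0.78, SE 0.22, adjusted p = 0.00289), with 24 to 41 reads in ectoderm libraries, and it was not called in the single fit of 48 libraries (0.70, adjusted p = 0.501). That is 1 of the 5 probes tested, where 81.7% of 903 probes were called in this comparison, 43.2% higher and 38.5% lower. Scaling to the reference genes turned both strong probes into increases, of 1.55 (adjusted p = 6.07e-12) for probe 274 and 1.48 (adjusted p = 3.54e-09) for probe 1025. Smaller increases were also called for both without a filter (0.27, adjusted p = 0.0303, and 0.18, adjusted p = 0.0261) and with 10 reads in every library (0.34, adjusted p = 0.00731, and 0.26, adjusted p = 0.00318). For probe 1025 they were called with DESeq2 size factors (0.15, adjusted p = 0.0483) and DESeq2's own test (0.16, adjusted p = 0.0238) as well. FTH1 probe 276 (0.27, SE 0.20, adjusted p = 0.217) and TXNRD1 probe 1024 (0.63, SE 0.39, adjusted p = 0.150) were not called. Reference genes (1.72 and 2.07) and DESeq2's own test (0.43, adjusted p = 0.0384, and 0.81, adjusted p = 0.0443) called both higher. A filter of 10 reads in every library called probe 276 (0.52, adjusted p = 0.0262), as did leaving out ectoderm replicate 2 (0.48).

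Against hESC, the strong probe of each gene was lower in both EB arms. FTH1 probe 274 ran from 3841 to 8239 CPM after CEPT (median 4478, n = 16) and from 5037 to 6085 after Y-27632 (median 5480, n = 16). All 32 EB libraries were below the lowest hESC library (10644 CPM). TXNRD1 probe 1025 ran from 440 to 835 CPM (median 587) after CEPT and from 610 to 894 (median 713) after Y-27632. Again all 32 EB libraries were below the lowest hESC library (1232 CPM). The share of all probes that separated in this way was not computed. The log2 fold changes of probe 274 were -1.02 (SE 0.14, adjusted p = 1.14e-06) for CEPT EB and -0.84 (SE 0.075, adjusted p = 9.5e-10) for Y27 EB, which are 2.03-fold and 1.80-fold lower. Those of probe 1025 were -0.89 (SE 0.12, adjusted p = 7.35e-07) and -0.63 (SE 0.089, adjusted p = 1.33e-06). The 2 comparisons share the hESC libraries. The weak TXNRD1 probe 1024, at 18.2 to 27.6 CPM in hESC, was at 0 to 16.1 CPM in CEPT EB, with no overlap. Its log2 fold change of -1.26 (SE 0.60, adjusted p = 0.0612) missed the threshold, and 4 of 8 alternatives called it, among them DESeq2 size factors (-1.58, adjusted p = 0.0187) and the single fit of 48 libraries (-1.51, adjusted p = 0.00209), as did leaving out CEPT EB replicate 2, 13 or 14. In Y27 EB it overlapped hESC (-0.12, SE 0.28, adjusted p = 0.70). In CEPT EB 2 of the 5 tested probes were called, where 73.4% of 940 probes were called (42.2% higher and 31.2% lower), and in Y27 EB 2 of 6, where 74.1% of 963 probes were called (41.5% higher and 32.6% lower).

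These decreases are relative to the bulk of the panel. Scaled to the reference genes ACTB, GAPDH and PGK1, probe 274 stood at 0.050 (adjusted p = 0.861) and 0.28 (adjusted p = 0.161), and probe 1025 at 0.18 (adjusted p = 0.491) and 0.51 (adjusted p = 0.031), for CEPT EB and Y27 EB in turn. The reference probes themselves were 2.02-fold lower in CEPT EB and 1.67-fold lower in Y27 EB than in hESC per library total, and 2.56-fold lower in ectoderm. This scaling moved the median change of all probes by 1.03 in CEPT EB, 1.12 in Y27 EB, 1.47 in ectoderm, 0.74 in mesoderm and 0.80 in endoderm. It also moved the split of called probes from 397 higher and 293 lower to 569 and 130 in CEPT EB, from 400 and 314 to 593 and 138 in Y27 EB, from 390 and 348 to 605 and 162 in ectoderm, from 307 and 393 to 468 and 218 in mesoderm, and from 347 and 359 to 508 and 233 in endoderm. Library totals alone moved the mesoderm split to 376 and 309, and left probe 1025 in Y27 EB at -0.25 (adjusted p = 0.159). Measured against the median change of all probes in the same fit, probe 274 lay at -1.51 to -1.45 after CEPT and -1.24 to -1.22 after Y-27632 across the 6 scalings, and probe 1025 at -1.36 to -1.32 and -1.02 to -0.99. In endoderm, probe 274 lay at 1.51 to 1.57 and probe 1025 at 0.025 to 0.083 above that median. A scaling shifts all probes of a fit by nearly the same amount, so the narrowness of these ranges is built in. They give the place of a probe among the panel's probes and do not show which scaling is right.

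**Figure D2:**
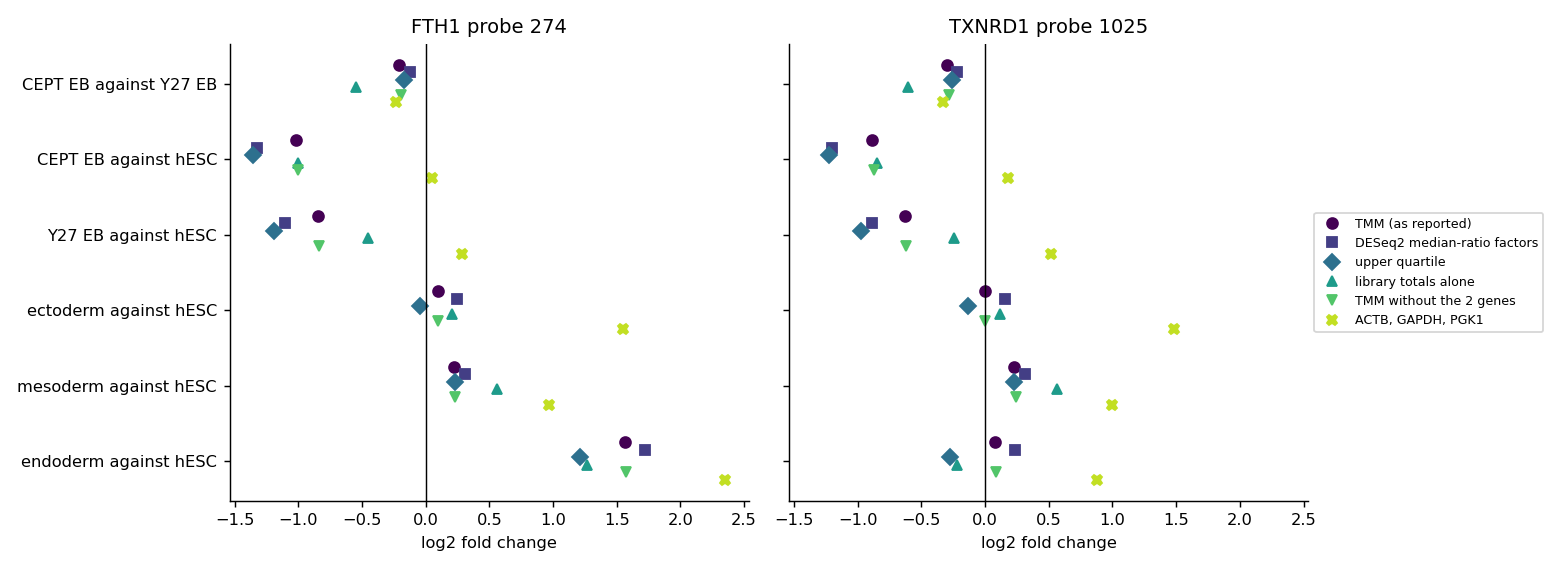
Log2 fold changes of FTH1 probe 274 (left) and TXNRD1 probe 1025 (right) in 6 comparisons, with a symbol for each way of scaling the libraries. The endoderm increase of probe 274 lies right of 0 with every scaling, while the EB decreases against hESC cross 0 when libraries are scaled to ACTB, GAPDH and PGK1.

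The FTH1 probes did not fall together in the EBs. Probe 276 ran from 990 to 1807 CPM after CEPT (median 1172) and from 1048 to 1521 after Y-27632 (median 1330), and both arms overlapped the hESC range of 1219 to 1797. Its log2 fold changes against hESC were 0.098 (SE 0.15, adjusted p = 0.563) for CEPT EB and 0.14 (SE 0.10, adjusted p = 0.231) for Y27 EB. The sign turned negative with DESeq2 size factors (-0.22 and -0.12) and upper-quartile factors (-0.24 and -0.21), and library totals alone called it higher in Y27 EB (0.51, adjusted p = 0.00655). Scaling to the reference genes called it higher in both arms (1.14, adjusted p = 5.72e-05, and 1.27, adjusted p = 1.18e-06). In mean CPM, CEPT EB and Y27 EB stood below hESC, at 0.90 and 0.94 of its mean. Within a library, per 100 reads of probe 274 there were 12.3 ± 3.25 reads of probe 276 in hESC (SD, n = 4; range 9.29 to 16.9). In CEPT EB there were 26.9 ± 6.81 (SD, n = 16; 17.9 to 43.1) and in Y27 EB 24.0 ± 2.17 (SD, n = 16; 19.7 to 28.6). No EB library overlapped hESC. The log2 differences from hESC were 1.13 and 0.99, each with an exact two-sided permutation p of 0.000206, the smallest that 4 against 16 can give, and 0.00206 after adjustment over the 20 ratio tests. These ratio tests against hESC were chosen after the values were seen. The 2 EB arms did not differ from each other in this ratio by more than their spread (0.14, permutation p = 0.141, adjusted p = 0.313).

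The same ratio in the lineage cultures overlapped hESC. Per 100 reads of probe 274 there were 13.6 ± 2.04 reads of probe 276 in ectoderm, 15.99 ± 2.11 in mesoderm and 15.5 ± 2.22 in endoderm (SD, n = 4 each). The adjusted p-values of these differences were 0.569, 0.310 and 0.343 by exact permutation tests. By the reading of their names given above, probe 274 lies in coding sequence and probe 276 in the 3′ UTR. The part of probe position, transcript form or reads shared with pseudogenes was not tested.

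**Figure D3:**
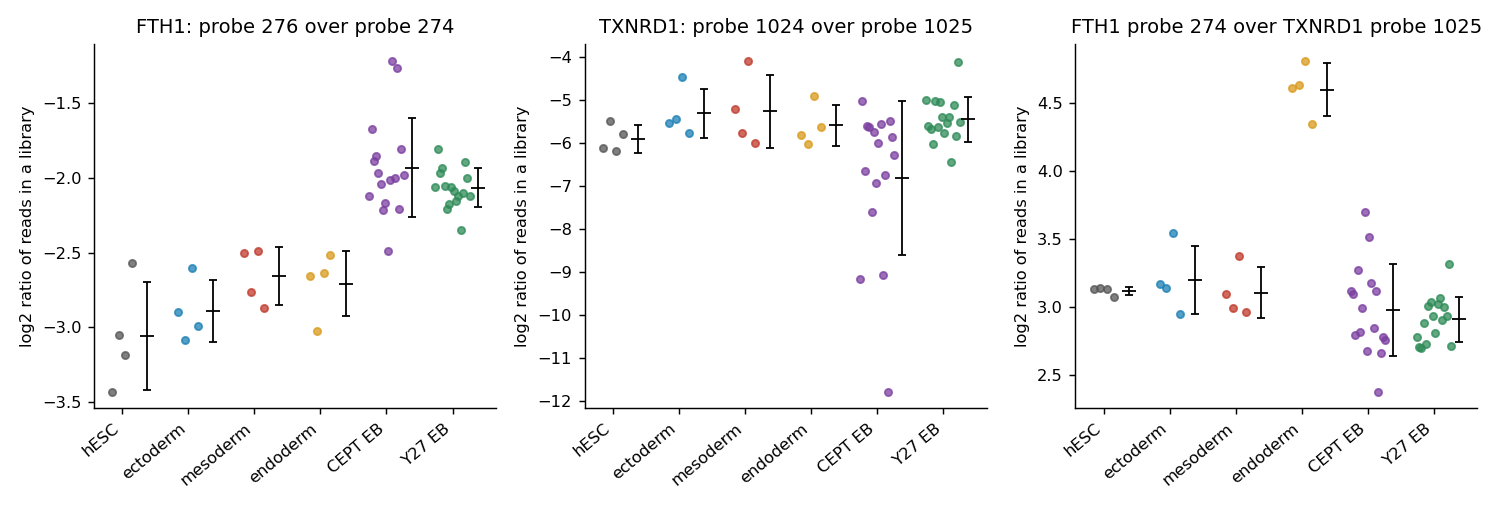
Log2 ratios of the reads of 2 probes in the same library (0.5 added to each count), with a point per library, and a bar and whiskers for the mean and SD. The FTH1 3′ UTR probe over the coding probe is higher in all EB libraries than in all hESC libraries, the TXNRD1 ratio has a tail of low values in CEPT EB, and FTH1 over TXNRD1 is highest in endoderm.

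Between the EB arms, the comparison of 2 ways to protect dissociated cells, TXNRD1 was lower after CEPT with both tested probes. Probe 1025, with the levels given above, overlapped between the arms, and every Y27 library was above the CEPT median of 587 CPM. The fitted log2 difference was -0.30 (SE 0.076, adjusted p = 0.00359), a 1.23-fold difference. Probe 1024 ran from 0 to 16.1 CPM after CEPT (median 8.35) and from 8.14 to 34.4 after Y-27632 (median 16.3). All 16 CEPT libraries were below the Y27 median, and 3 of them had at most 3 reads of this probe, with 0 reads in replicate 13, 2 in replicate 11 and 3 in replicate 1. No Y27 library had fewer than 16 reads. The log2 fold change of probe 1024 was -1.19 (SE 0.34, adjusted p = 0.00933). It stayed called at -1.49 to -1.11 under 10 alternatives and at -1.29 to -1.08 without each library in turn. Probe 1025 lost its call when scaled to the reference genes (-0.33, adjusted p = 0.124).

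FTH1 gave no call between the arms with the scaling and filter used here, a result that depended on the processing. Probe 274 had a log2 fold change of -0.21 (SE 0.081, adjusted p = 0.0529), probe 276 of -0.083 (SE 0.076, adjusted p = 0.502) and probe 275 of -0.045 (SE 0.52, adjusted p = 0.953). So 2 of the 5 tested probes of the pair of genes were called, where 23.6% of 867 probes were called in this comparison, 10.6% higher and 13% lower. The result for probe 274 sat at the threshold. CEPT EB replicates 7 (8239 CPM) and 9 (6565 CPM) stood above the other 14, which ran up to 5048 CPM, and without replicate 7 the change was -0.27 (adjusted p = 0.00347) and without replicate 9 it was -0.22, both called. It was also called at -0.55 (adjusted p = 0.000145) with library totals alone, and not at -0.13 (adjusted p = 0.353) with DESeq2 size factors. A single fit of all 48 libraries called probe 274 lower (-0.20, adjusted p = 0.0452). The FTH1 probes summed per gene were called lower too (-0.19, adjusted p = 0.0408). Probe 276 was called lower with library totals alone (-0.38, adjusted p = 0.00995) and stood at 0.0015 with DESeq2 size factors. The split of called probes in this comparison moved with the scaling as well, from 92 higher and 113 lower to 107 and 75 with DESeq2 size factors and to 48 and 291 with library totals alone, which shifted the median of all probes by -0.31.

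The tested TXNRD1 probes fell by unequal amounts after CEPT. Per 100 reads of probe 1025 there were 1.36 ± 0.880 reads of probe 1024 after CEPT and 2.47 ± 1.06 after Y-27632 (SD, n = 16 each), against 1.72 ± 0.402 in hESC (SD, n = 4). The arms overlapped, and the log2 ratio differed by -1.38 (two-sided permutation p = 0.00102, adjusted p = 0.0068). It differed by -1.49 to -1.04 without each library in turn. The lowest log2 ratios were those of CEPT EB replicates 1 (-9.16), 11 (-9.06) and 13 (-11.8), with 3, 2 and 0 reads of probe 1024. Other CEPT libraries ran from -7.60 to -5.02, and Y27 libraries from -6.43 to -4.11. The value of replicate 13 rests on the 0.5 added to each count, and the difference without these libraries together was not computed. Medians per 100 reads were 1.44 after CEPT and 2.20 after Y-27632. Against hESC the ratio did not differ by more than its spread in CEPT EB (-0.92, exact permutation p = 0.34) or in Y27 EB (0.45, exact permutation p = 0.124). The ratio of FTH1 probe 274 to TXNRD1 probe 1025 also stayed within the spread between the arms, at 811 ± 201 per 100 after CEPT and 756 ± 91.2 after Y-27632 (SD, n = 16 each; log2 difference 0.072, permutation p = 0.455). The ratios of probe 275 to probe 274 (0.12) and to probe 276 (-0.014) did not differ between the arms either, with permutation p = 0.861 and p = 0.985.

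**Figure D4:**
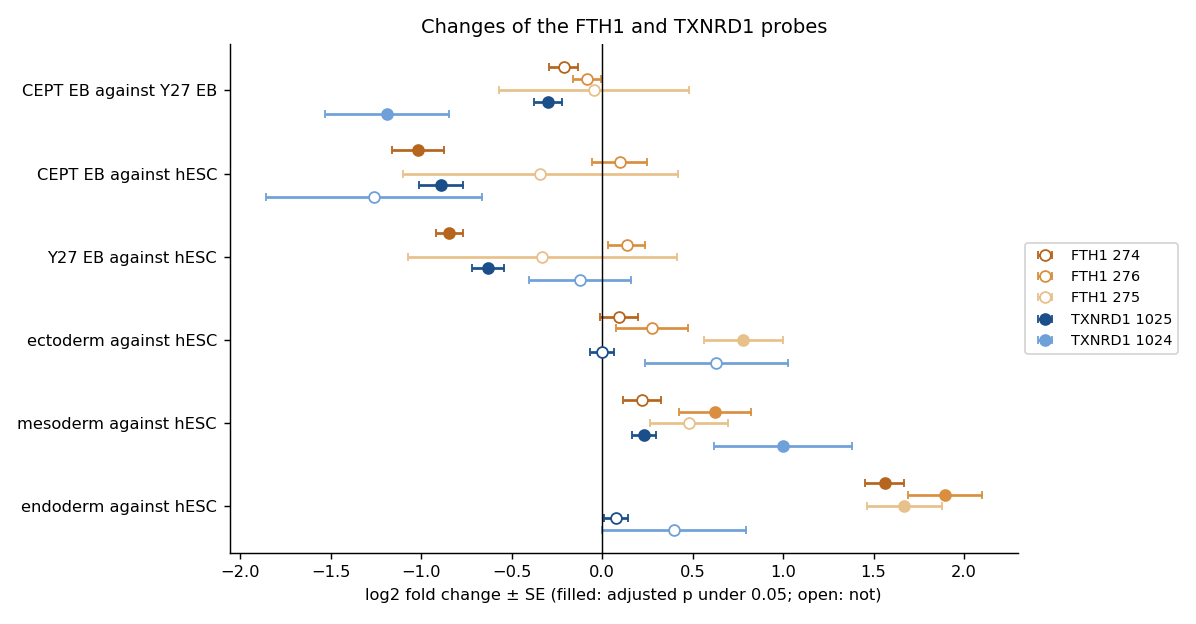
Log2 fold changes with their standard errors for 5 probes in 6 comparisons; filled points have an adjusted p under 0.05 and open points do not. The 3 FTH1 probes lie between 1.56 and 1.89 in endoderm, while in the EB arms probe 274 lies left of 0 and probe 276 near 0.

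With all 16 libraries of each arm kept, the SD was larger in CEPT EB than in Y27 EB for some probes, and a few CEPT libraries lay far from the others. The SD of log2 CPM of TXNRD1 probe 1024 was 1.43 among CEPT libraries and 0.50 among Y27 libraries (two-sided permutation p = 0.00279, adjusted p = 0.00697 over 5 probes). The CEPT libraries with 3, 2 and 0 reads of this probe, named above, stood at 0.50, 0.43 and -0.88. Other CEPT libraries ran from 1.85 to 4.06, and Y27 libraries from 3.12 to 5.13. At so few reads the log2 value rests largely on counting error and the prior count. The SD of FTH1 probe 274 was 0.29 and 0.086 (permutation p = 0.00196, adjusted p = 0.00697). Here CEPT EB replicates 7 (8239 CPM) and 9 (6565 CPM) stood above the others, which ran from 3841 to 5048 CPM. For both probes, the SD without these outlying CEPT libraries was not computed, so a wider spread among the other libraries was not shown. The difference of 0.20 for probe 274 also rested on the scaling, since it was 0.010 (adjusted p = 0.91) with library totals alone. For probe 276 the SDs were 0.27 and 0.12 (permutation p = 0.0455, adjusted p = 0.0758), with a difference that passed when library totals alone were used (0.15, adjusted p = 0.0281). For probes 1025 (0.22 and 0.14) and 275 (1.51 and 1.34) the difference did not pass (adjusted p = 0.199 and 0.646).

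Within an arm, the libraries with more FTH1 were not shown to have more TXNRD1. Over the 16 CEPT EB libraries, log2 CPM of probes 274 and 1025 had a Pearson r of 0.14 (permutation p = 0.593) and a Spearman rho of 0.29 (permutation p = 0.271). Over the 16 Y27 EB libraries r was -0.088 (permutation p = 0.746) and rho was -0.085 (permutation p = 0.755). None of 6 such relations passed after adjustment (lowest adjusted p = 0.613 for r). Without the 2 libraries farthest from the median the values were 0.24 and 0.18. With library totals alone the r of probes 274 and 1025 was 0.51 after CEPT and 0.82 after Y-27632. With TMM scaling, probes of the same gene were not shown to vary together either. For probes 274 and 276 r was 0.29 after CEPT and 0.28 after Y-27632, and for probes 1025 and 1024 it was -0.31 and 0.092. A low r between the 2 genes therefore says little. These relations were chosen after the values were seen.

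By mean CPM, FTH1 probe 274 stood in the order endoderm (35605 ± 2216), mesoderm (15946 ± 2026), ectoderm (11638 ± 1594), hESC (11595 ± 1130), Y27 EB (5547 ± 332) and CEPT EB (4835 ± 1121). Of the neighbours in that order, endoderm and mesoderm differed (log2 fold change of mesoderm against endoderm -1.34, adjusted p = 8.71e-10) and hESC and Y27 EB differed. Ectoderm and hESC, and the EB arms, were not called, with the dependence on processing given above. Ectoderm against mesoderm was not called either (-0.13, adjusted p = 0.271), although every mesoderm library was above every ectoderm library in CPM. It was called lower with upper-quartile factors (-0.27, adjusted p = 0.0358), library totals alone (-0.35, adjusted p = 0.00391), summed probes (-0.26, adjusted p = 0.0426) and the single fit of 48 libraries (-0.45, adjusted p = 0.00779), and higher when scaled to the reference genes (0.58, adjusted p = 2.45e-05). TXNRD1 probe 1025 stood in the order mesoderm (1843 ± 90.4), endoderm (1471 ± 111), hESC (1335 ± 118), ectoderm (1260 ± 62.6), Y27 EB (740 ± 71.0) and CEPT EB (607 ± 96.4). Mesoderm passed against endoderm (0.15, adjusted p = 0.0429), which 5 of 11 alternatives did not keep (0.080 to 0.78, adjusted p up to 0.46). Ectoderm passed against Y27 EB (-1.08 for Y27 EB, adjusted p = 7.11e-11), and so did the EB arms against each other. Endoderm and hESC, and hESC and ectoderm, were not called in TXNRD1, with the dependence on processing given above. Ectoderm against endoderm was not called (-0.076, adjusted p = 0.298), although their libraries did not overlap in CPM, and it was called lower with summed probes (-0.15, adjusted p = 0.0316) but higher with library totals alone (0.33, adjusted p = 0.000179) and reference genes (0.61, adjusted p = 0.000537). Of all probes, 76.2% were called between mesoderm and endoderm, 80.2% between ectoderm and mesoderm, 79.7% between ectoderm and endoderm and 72.6% between Y27 EB and ectoderm. In these lists the errors are SDs, with n = 4 for cultures and n = 16 for EB arms.

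TXNRD1 probe 777 was too weak to compare. It had 2 to 10 reads in hESC, 2 to 5 in ectoderm, 4 to 6 in mesoderm and 2 to 10 in endoderm libraries. In CEPT EB it had 0 to 19 reads, with 11 of 16 libraries at 3 reads or fewer, and in Y27 EB 0 to 42 reads, with 6 of 16 libraries at 3 or fewer. It passed the filter on low counts only in the fits of Y27 EB with each control group, where it was not called. Probe 275 of FTH1 also had libraries with 0 reads, CEPT EB replicates 11 and 13 and Y27 EB replicates 3 and 7, at totals where a count of 0 allows up to 3 reads. PCR reads carry no molecular identifiers here, so such a limit covers counting error only.

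Other genes of the same chemistry were taken from a list of 68 redox, iron and metal-binding genes, of which 12 are on the panel with 28 probes. Between the EB arms, 3 of 24 tested probes of the list were higher after CEPT and 1 was lower, where 10.6% of all probes were called higher and 13% lower, with a median log2 fold change of -0.051 beside -0.043 over all probes tested. TXN, the thioredoxin that TXNRD1 reduces, was higher after CEPT with its strongest probe, 772, at 10677 ± 2391 CPM against 5850 ± 1150 (SD, n = 16 each; log2 fold change 0.86, SE 0.11, adjusted p = 1.26e-06), and was called with each of 6 scalings. The reductase TXNRD1 was lower, as given above. MT2A, a metallothionein that binds zinc and copper, was higher (0.53, SE 0.17, adjusted p = 0.0166), and 1 probe of GCLM, the modifier subunit of the enzyme that starts glutathione synthesis, was lower (-0.53, SE 0.19, adjusted p = 0.0349), calls that 4 and 3 of the 6 scalings made. GSR, the reductase of oxidised glutathione, had a change of 0.069 (SE 0.075, adjusted p = 0.578).

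Against hESC, the list moved in both directions in each group. In endoderm 14 of 26 tested probes were higher and 6 lower, where 38.4% and 39.8% of all probes were (median 0.31 beside 0 over all probes). Of these 20, 6 changed sign under some scaling, of GCLC, GCLM, GSR, PRDX1 and TXNIP. NQO1, an NADPH-dependent quinone reductase, was higher there with probe 940 (1.89, SE 0.13, adjusted p = 6.4e-11), as was HMOX1, the haem oxygenase that releases iron from haem (1.44, SE 0.16, adjusted p = 1.32e-07), both with all 6 scalings. In ectoderm 3 probes were higher, all of TXNIP, an inhibitor that binds thioredoxin, and 18 of 26 were lower (median -0.78 beside 0.14; 43.2% and 38.5% of all probes), but 14 of these 21 called probes changed sign under some scaling, GSR, GCLM, PRDX1 and TXN among them. In mesoderm 5 were higher and 10 lower (median 0.12 beside -0.18; 34% and 43.5% of all probes), 3 of these 15 changed sign under some scaling, and TXNIP probe 774 stood at 1943 ± 203 CPM there against 58.4 ± 6.18 in hESC (SD, n = 4 each). In CEPT EB 7 of 27 were higher and 11 lower (median -0.27 beside 0.47; 42.2% and 31.2% of all probes), and in Y27 EB 8 and 11 (median -0.67 beside 0.39; 41.5% and 32.6%), with 2 of 18 and 3 of 19 changing sign. In both EB arms TXN (2.38 and 1.48 for probe 772) and TXNIP (4.12 and 4.37 for probe 774) were higher than in hESC with all 6 scalings. GSR (-1.29 and -1.40 for probe 330) and GCLM (-2.04 and -1.86 for probe 314) were lower and kept that sign, although GSR was not called when scaled to the reference genes (-0.23 and -0.26), and GCLC probe 310 was lower but changed sign there (0.22 and 0.28). The metallothioneins MT1G, MT1X and MT2A were lower in all 5 groups than in hESC and kept that sign with all 6 scalings, with MT1G and MT1X in CEPT EB not called when scaled to the reference genes. MT1X was at 1548 ± 330 CPM in hESC and at 6.25 ± 1.30 in endoderm (SD, n = 4 each).

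**Figure D5:**
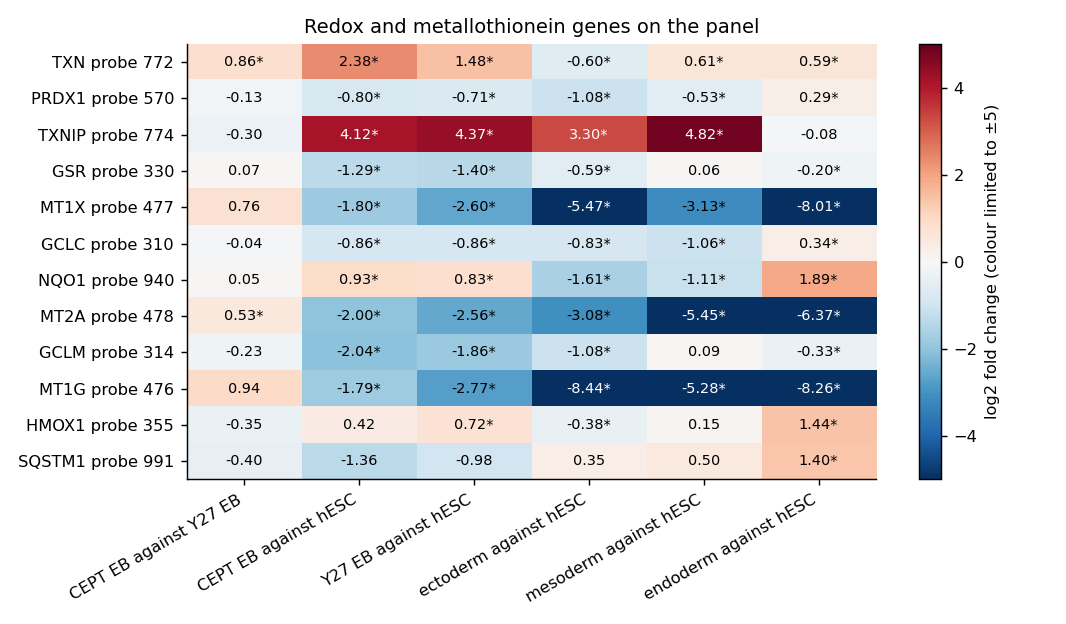
Log2 fold changes of the strongest probe of each of the 12 listed redox and metallothionein genes on the panel, in 6 comparisons; an asterisk marks an adjusted p under 0.05. TXN is higher in both EB arms than in hESC and higher after CEPT than after Y-27632, whereas GSR and GCLM are lower in both EB arms than in hESC.

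The genes whose levels most resembled each strong probe were found by Pearson r of log2 CPM over the 48 libraries, among the best probes of 271 genes with a mean of at least 50 CPM. For TXNRD1 probe 1025 they were GSR (r = 0.92), ODC1, the first enzyme of polyamine synthesis (r = 0.91), and GCLM (r = 0.90). For FTH1 probe 274 they were HSP90B1 (r = 0.98) and CALR (r = 0.97), both chaperones of the endoplasmic reticulum, and TUBA1C, an alpha-tubulin (r = 0.95). ODC1 ran from 185 ± 59.9 CPM in CEPT EB to 3287 ± 129 in mesoderm, and HSP90B1 from 706 ± 84.8 in CEPT EB to 9385 ± 803 in endoderm, the same lowest and highest groups as TXNRD1 probe 1025 and FTH1 probe 274. The 48 libraries share 6 groups and their scaling, so these r values describe the groups as much as the libraries. By Spearman rho the partners of TXNRD1 ranked 22 (GSR), 14 (ODC1) and 9 (GCLM) of 271, and those of FTH1 ranked 2 (HSP90B1), 6 (CALR) and 9 (TUBA1C).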

How the data were processed

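RNA of 48 libraries was measured by RASL-Seq. Oligo-dT capture of lysates, probe ligation, amplification and NextSeq sequencing are described per the labels' protocols. The authors deposited raw counts of reads for each probe; the submitters' processing notes name DESeq2 and the build hg38, and the counting program's settings are not given in the sources used here. The libraries' own tables equal 48 columns of a merged table, and 16 further columns matched no sample and were not used. Groups come from the labels; no 2 libraries of a group agreed within counting noise (chi-square over degrees of freedom at least 4.93).

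Counts were tested with edgeR 4.0.16 in R 4.3.3 (filterByExpr by group, TMM, robust quasi-likelihood test, two-sided, Benjamini-Hochberg over all probes tested, threshold 0.05): the 32 EB libraries in 1 fit, the 16 control libraries in another, and each EB arm with each control group alone. The SE is the log2 fold change divided by the square root of F. Intervals are 95% intervals from those errors. CPM used TMM over all 48 libraries, log2 CPM a prior count of 2. Within-library ratios added 0.5 to each count and used exact permutation tests or 100000 resamples, in SciPy 1.17.1. The EB design was tested on simulated counts: with 200 of 867 probes changed, 82.5% of 2-fold and 98.1% of 4-fold changes were called and 4.23% of calls were false, and with none changed 0 were called. For mesoderm against hESC (903 probes) the values were 83.9%, 97.3% and 5.18%, and for CEPT EB against hESC (940 probes) 54.7%, 77.7% and 2.24%. In each design 200 probes were changed, up or down at random. The real comparisons with hESC called far more probes, so these rates do not cover errors that come from the scaling.

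The members, lists and tests were chosen with earlier results of these data known. All TXNRD1 and FTH1 probes are named; other genes are those of the redox list on the panel and, for each strong probe, the 3 most alike genes. Alternatives were other scalings, filters, DESeq2 1.42.0, a replicate block, 1 fit of 48 libraries, summed probes of a gene, removal of libraries below 0.25 of the median total, and removal of each library in turn. Probe positions were placed with GENCODE 29 transcripts, whose FTH1 start differs from RefSeq's by 26 bases, and gene positions come from RefSeq on GRCh38.p14. Figures were drawn with matplotlib 3.10.9. A sequence of FTH1 is not reported here.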

Additional observations from a re-analysis of the deposited data

Results flagged for a closer look

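Among 40 checks of control groups of 4 libraries, 2 had a library set apart from the other 3, with a gap that took more of the group's range than Dixon's critical value allows; chance does this in about 1 of 20 groups. In hESC, the log2 ratio of FTH1 probe 274 to TXNRD1 probe 1025 was 3.07 in replicate 4 and 3.13 to 3.14 in the others, a gap of 0.891 of the range, although the whole range was small (840.5 to 879.9 reads per 100). In mesoderm, FTH1 probe 274 stood at a log2 CPM of 14.21 in replicate 3 and from 13.84 in the others, a gap of 0.850 of the range. Replicate 3 was the highest library of mesoderm, ectoderm and endoderm alike with FTH1 probes 274 and 276 and TXNRD1 probe 1024.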

How the results depend on the processing

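Against 591 recomputed values and 856 with a library left out, over 88 results, 30 and 31 changed sign, and 5 of these 61 began from a called value, all with the reference genes as scale. The increase of FTH1 in endoderm with probes 274 and 276, the increase of TXNRD1 probe 1025 in mesoderm and the decrease of TXNRD1 probe 1024 after CEPT kept direction and call under every alternative run. So did the ratio of FTH1 probe 276 to probe 274 in the EBs against hESC, with each library left out and under its 1 alternative. That alternative added 1 to each count, which changes counts of this size little. The weak probes 1024, 275 and 777 had few reads. The cause of the changes was not tested.

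With the reference genes as scale, log2 fold changes were as follows. TXNRD1 probe 1025 stood at -0.33 between the EB arms, 1.48 in ectoderm, 0.87 in endoderm and, against hESC, 0.18 after CEPT and 0.51 after Y-27632. FTH1 probe 274 stood at 1.55 in ectoderm, 0.97 in mesoderm, 0.050 after CEPT and 0.28 after Y-27632. TXNRD1 probe 1024 was 1.01 in Y27 EB and 1.20 in endoderm. FTH1 probe 276 was 1.14 after CEPT and 1.27 after Y-27632, against hESC. Ectoderm against mesoderm gave 0.49 for probe 1025 and 0.58 for probe 274, and ectoderm against endoderm 0.61 for probe 1025. With library totals alone, probe 274 stood at -0.55 between the arms and 0.56 in mesoderm, probe 1025 at -0.22 in endoderm, -0.25 in Y27 EB and 0.33 for ectoderm against endoderm, and probe 1024 at 0.27 in Y27 EB. The difference of SD between the arms was 0.010 for probe 274 and 0.15 for probe 276, and r of probes 274 and 1025 in Y27 EB was 0.82. With DESeq2 size factors, probe 276 was 0.0015 between the arms, -0.22 in CEPT EB and -0.12 in Y27 EB, probe 1025 0.15 in ectoderm and 0.23 in endoderm, and probe 274 0.31 in mesoderm. DESeq2's own test gave 0.0019, -0.22 and -0.12 for probe 276, 0.16 and 0.23 for probe 1025 and 0.31 for probe 274. Upper-quartile factors gave -0.13 in ectoderm, -0.28 in endoderm and 0.14 for ectoderm against endoderm with probe 1025, -0.045 in ectoderm with probe 274, and -0.24 and -0.21 in the EB arms with probe 276. Without a filter, probe 1025 was 0.18 in ectoderm, 0.17 in endoderm and 0.0042 for ectoderm against endoderm, and probe 274 was 0.27 in ectoderm and 0.32 in mesoderm. With at least 10 reads in every library these were 0.26 and 0.31 for probe 1025 and 0.34 and 0.41 for probe 274. A single fit of 48 libraries gave -0.20 between the arms and 0.46 in mesoderm for probe 274, both called. It gave -0.084 in ectoderm for probe 1025, and -0.15 and -0.084 in the EB arms for probe 276. Probes summed per gene gave -0.19 between the arms and 0.49 in mesoderm for FTH1 and 0.28 in endoderm for TXNRD1, all called. With 1 added to each count, the log2 ratio of probe 275 to 276 between the arms was 0.012.

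Same-numbered libraries were not treated as pairs, since what replicate numbers stand for is not given. The r of their deviations was over 0.1 in 3 of 16 EB pairs and 0 of 12 pairs with hESC. Among ectoderm, mesoderm and endoderm it was over 0.1 in 8 of 12 pairs (0.45 to 0.58 for replicate 3). The reported tests of these 3 cultures leave out that shared part. With the replicate number as a block, probe 1025 in ectoderm was -0.00022 and probe 274 in mesoderm 0.22, now called (adjusted p = 0.0123). The block was not run for the EB arms against hESC.

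Beside the reported counts of 205 (EB arms), 738, 700, 706, 690 and 714, the number of probes called was 339 with library totals alone, 134 with reference genes and 112 with probes summed between the arms. A filter of 10 reads in every library gave 435, 392, 398, 425 and 407 calls for ectoderm, mesoderm, endoderm, CEPT EB and Y27 EB against hESC, and probes summed gave 333, 316, 331, 325 and 323, as fewer features were tested.

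With each library left out in turn, probe 274 ranged from -0.27 to -0.17 between the arms, from -0.024 to 0.24 in ectoderm and from 0.18 to 0.41 in mesoderm, probe 1025 from -0.031 to 0.15 in ectoderm, and probe 276 from -0.064 to 0.15 in CEPT EB. The log2 ratio of probe 275 to 274 between the arms ranged from -0.23 to 0.37 and of 275 to 276 from -0.36 to 0.28. That of probe 274 to 1025 ranged from -0.033 to 0.17 in ectoderm, from -0.10 to 0.036 in mesoderm and from -0.24 to -0.19 in Y27 EB, where it was called without Y27 EB replicate 15 (adjusted p = 0.0129).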
